A study of Mus musculus with 80 samples.

Results

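Sulfotransferases of the cytosol were followed in mouse lung after styrene inhalation through 5 genes: Sult1a1, Sult1d1, Sult1b1, Sult1c2 and Sult1e1. They are 5 of the 17097 genes that the arrays named by a single symbol. Each gene was read from the probe set chosen by its measured signal, the highest mean over the 80 arrays, so the level itself is a description and carries no test. Only Sult1a1 and Sult1d1 passed the filter on low signal (above the median of the whole table, 4.28 on the log2 scale, in at least 5 of 80 arrays) and are 2 of the 11406 genes tested. The other 3 members are given as values. Signals are log2 units throughout, so a difference of 1 is a 2-fold difference.

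Adult male mice from Taconic breathed styrene, an aromatic solvent, or air for a single exposure of 6 h, and whole lungs were collected the next morning. The 16 groups of 5 lungs crossed 4 doses (0 ppm, which is air alone, 10, 40 and 120 ppm) with 4 strains. WT was C57Bl/6 wild type, KO was the C57Bl/6 CYP2F2 knockout, TG was the C57Bl/6 strain humanized for CYP2F1, and CD-1 was the outbred stock. CYP2F2 is a mouse cytochrome P450 that oxidizes styrene and is abundant in club cells, a secretory cell type of small airways, and CYP2F1 is the human counterpart. The sources used here do not name the promoter that drives CYP2F1 or say whether the humanized mice came from the knockout line. The labels call the 5 lungs of a group biological replicates, so each array is read as a separate animal. The spread between arrays holds differences between animals and those of sampling and measurement, which cannot be told apart here.

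As background, cytosolic sulfotransferases move a sulfonate group from the donor PAPS (3'-phosphoadenosine-5'-phosphosulfate) to hydroxyl or amino groups of small molecules. The sulfated products are as a rule more soluble and more readily excreted, though some sulfate esters are reactive. Sult1a1 is the phenol sulfotransferase that acts on many small phenols, among them phenolic products of aromatic hydrocarbons. Sult1d1 is a rodent enzyme known for sulfating catecholamines and related amines. Sult1b1 sulfates phenols and thyroid hormones, Sult1e1 is the oestrogen sulfotransferase, and Sult1c2 belongs to the SULT1C subfamily.

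In the RefSeq gene table (GRCm38.p6), Sult1b1, Sult1d1 and Sult1e1 lie next to each other on chromosome 5, with 0 other listed genes between Sult1b1 and Sult1d1 and 0 between Sult1d1 and Sult1e1. Sult1a1 lies on chromosome 7 and Sult1c2 on chromosome 17. All 5 genes were matched in the RefSeq promoter table. The 250 bases that end just before the annotated start are shown for the 2 members with measurable signal, because Sult1d1 shares its gene cluster with members that gave no signal above the filter, and because the pair moved differently with dose. Both are read 5′ to 3′ on the minus strand, Sult1a1 at chr7:126676419-126676668 and Sult1d1 at chr5:87569007-87569256, from RefSeq on GRCm38.p6. For Sult1a1 the start given in the promoter table lies inside the longer span that the gene table lists. Capitals mark matches to the searched motifs.
Sult1a1: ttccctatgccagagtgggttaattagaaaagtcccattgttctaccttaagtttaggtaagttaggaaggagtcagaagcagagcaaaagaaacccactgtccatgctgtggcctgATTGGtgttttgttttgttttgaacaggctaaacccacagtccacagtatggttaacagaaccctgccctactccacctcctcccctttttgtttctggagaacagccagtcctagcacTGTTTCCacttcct
Sult1d1: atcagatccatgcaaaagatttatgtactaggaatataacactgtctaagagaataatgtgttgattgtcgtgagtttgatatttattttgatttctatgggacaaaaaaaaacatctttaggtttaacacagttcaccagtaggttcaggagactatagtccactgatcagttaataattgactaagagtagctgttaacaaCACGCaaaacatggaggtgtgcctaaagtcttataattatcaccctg
The search covered 8 motifs on both strands, and matches did not overlap. In Sult1a1 the capitals are CCAAT, read on the opposite strand 133 to 129 bases before the start, and the forkhead motif TGTTTNC 14 to 8 bases before it. In Sult1d1 the capitals are GCGTG, the core of the AHR motif, read on the opposite strand 47 to 43 bases before the start. Of 32851 RefSeq windows of the same length, 33.8% held CCAAT, 17.8% held TGTTTNC and 28.2% held GCGTG, so each match is common. TATAAA (in 12.4% of windows), TGACNNNGC (10.2%), CACGTG (6.02%), AGGTCA (14%) and TTGCNNAA (9.56%) were not in either window. A match describes letters only and says nothing about binding.

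The signal of the 5 genes was first set against the filter. Sult1a1 lay above the table median in 80 of 80 arrays (8.19 to 10.51) and Sult1d1 in 80 of 80 (5.05 to 9.22). Sult1b1 lay above it in 0 of 80 arrays (2.40 to 3.51), as did Sult1c2 (2.56 to 3.39) and Sult1e1 (2.24 to 3.31). The group just outside the filter was thus well away from it, as the highest array of any of these 3 genes was 3.51 against a median of 4.28. Of the 8 other sulfotransferase genes with a probe set, Sult5a1 passed (above the median in 80 arrays), Sult2b1 was above it in 3 arrays, and Sult1c1, Sult2a2, Sult2a8, Sult3a1, Sult4a1 and Sult6b1 in 0. A probe set's brightness depends on its own sequence, so levels of different genes cannot be ranked here.

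**Figure D1:**
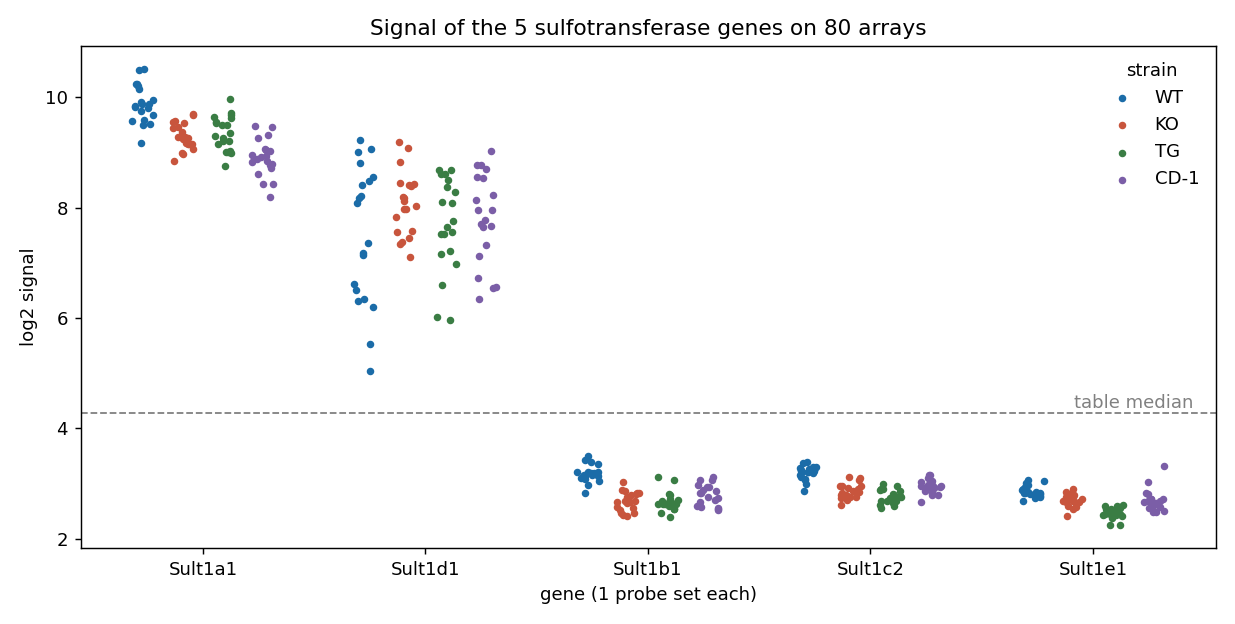
Log2 signal (vertical axis) of the 5 sulfotransferase genes (horizontal axis), 1 point per array, 20 arrays per strain, with strains in colour. Sult1a1 and Sult1d1 lie above the dashed table median of 4.28 in all 80 arrays, and Sult1b1, Sult1c2 and Sult1e1 below it in all 80. Heights of different genes come from different probe sets and are not comparable.

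For the 3 genes below the filter, exposed groups stayed close to air in each strain. The difference of a group mean from its strain's air mean ran from -0.06 to 0.16 for Sult1b1 over the 12 exposed groups. It ran from -0.12 to 0.07 for Sult1c2 and from -0.25 to -0.01 for Sult1e1. Sult1e1, the oestrogen sulfotransferase, had its lowest difference in CD-1 at 40 ppm, where the air group included the gene's highest array, 3.31 in CD-1 air replicate 4, against 2.67 to 2.83 in the 4 other air arrays. All 3 genes read highest in WT (medians of 20 arrays of 3.15, 3.22 and 2.84) and were lower in KO (2.68, 2.84 and 2.70), TG (2.63, 2.75 and 2.47) and CD-1 (2.79, 2.95 and 2.67). The median of a whole array showed the same difference, 4.53 to 4.60 in WT against 4.09 to 4.20 in KO, 3.84 to 4.14 in TG and 4.24 to 4.30 in CD-1. Strain differences of these 3 genes and of the arrays as a whole cannot be told apart.

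Facts of the whole series that bear on the members are few. The targeted gene Cyp2f2 read 12.0 to 13.3 in WT, 12.5 to 13.1 in CD-1, 11.5 to 11.9 in KO and 11.5 to 12.0 in TG, as deposited. After subtraction of each array's median it read 7.44 to 8.72 in WT, 8.22 to 8.85 in CD-1, 7.33 to 7.72 in KO and 7.40 to 7.99 in TG, so WT overlapped KO and TG while CD-1 lay above both. The sources used here do not place its probe set inside or outside the deletion, so the remaining signal is not interpreted. TG 0 ppm replicate 4 had the lowest array median, 3.84, and the next array stood at 4.07. In TG the median change over all genes tested was 0.06 at 10 ppm, 0.05 at 40 ppm and 0.06 at 120 ppm, against -0.01 to 0.01 in the other strains. In whole lung, fewer cells of a type and less RNA per cell cannot be told apart.

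Sult1a1, the phenol sulfotransferase, rose with dose in TG lungs. In air the 5 TG arrays read 9.01, 9.00, 8.76, 9.14 and 9.03, and at 10 ppm they read 9.26, 9.21, 9.00, 9.30 and 9.34. At 40 ppm they read 9.49, 9.20, 9.55, 9.96 and 9.53, and at 120 ppm 9.64, 9.72, 9.62, 9.67 and 9.49. All 5 arrays at 40 ppm and all 5 at 120 ppm lay above the highest air array, while at 10 ppm 4 of 5 did. In TG, 1.19% of the genes tested were separated upward in this way at 40 ppm and 1.66% at 120 ppm.

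The Sult1a1 change from air in TG was 0.64 ± 0.11 (SE, n = 5 per group) at 120 ppm, a 1.56-fold rise, with an adjusted p of 0.0195 in limma. At this dose 0.0701% of the genes tested were called, 8 genes, and Sult1a1 was 1 of them. At 40 ppm the change was 0.56 ± 0.11, with an adjusted p of 0.214, and at 10 ppm it was 0.24 ± 0.11 (0.342). Limma called 0% of genes at both of these doses, with 867 genes at 40 ppm and 1579 at 10 ppm below an unadjusted p of 0.05, and at 40 ppm Sult1a1 had the lowest p of all genes tested. The slope was 0.23 ± 0.03 per dose step over the 20 TG arrays (adjusted p = 0.00637), a contrast in which 0.0701% of genes were called. Among exposed TG groups Sult1a1 was higher by 0.32 ± 0.11 at 40 than at 10 ppm (adjusted p = 0.624), by 0.41 ± 0.11 at 120 than at 10 ppm (0.501) and by 0.08 ± 0.11 at 120 than at 40 ppm (0.999). Limma called 0% of genes in each of these 3 contrasts, with 840, 863 and 248 genes below an unadjusted p of 0.05.

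The size of the Sult1a1 change in TG at 120 ppm hardly moved between settings, and its adjusted p crossed the threshold in several. Subtracting each array's median gave 0.58 and an adjusted p of 0.0525. Leaving out 1 array ended the call for TG air replicate 1 (adjusted p = 0.0517), replicate 2 (0.0541) or replicate 3 (0.0717) and for 120 ppm replicate 1 (0.0633), replicate 2 (0.0628) or replicate 4 (0.0838), with changes of 0.59 to 0.68 over all such fits. The slope over dose kept its call in each of those fits and in every alternative run. Without 40 ppm replicate 2, the lowest array of its group, the 40 ppm change was 0.65 with an adjusted p of 0.0402.

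In WT lungs Sult1a1 was not called against air at any dose in the limma fit of its 20 arrays with no block or weights, and its level differed between the exposed groups. In air the arrays read 9.49, 9.94, 9.83, 9.68 and 10.15, and at 10 ppm 9.18, 9.51, 9.75, 9.59 and 9.56. At 40 ppm they read 9.81, 10.51, 10.50, 9.87 and 10.20, and at 120 ppm 9.88, 9.84, 9.91, 10.25 and 10.23. The groups at 10 and 40 ppm did not overlap, with 9.75 as the highest array at 10 ppm and 9.81 as the lowest at 40 ppm, and air lay across both. Of the genes tested, 0.929% were separated upward between these doses.

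The change from air was -0.30 ± 0.15 at 10 ppm (adjusted p = 0.199), 0.36 ± 0.15 at 40 ppm (0.0814) and 0.20 ± 0.15 at 120 ppm (0.348), all in limma with n = 5 per group. WT is the strain in which many genes moved: 12.6% of genes were called at 10 ppm, 26% at 40 ppm and 23.9% at 120 ppm, and of the 2 members tested 0, 1 and 1 were called, the call being Sult1d1. The slope of Sult1a1 was 0.13 ± 0.05 per step (adjusted p = 0.0538) where 26% of genes were called. Sult1a1 was higher by 0.66 ± 0.15 at 40 than at 10 ppm, 1.58-fold, with an adjusted p of 0.0358, in a contrast where 0.947% of genes were called. At 120 ppm it was higher than at 10 ppm by 0.50 ± 0.15 (adjusted p = 0.125, 0.903% of genes called), and between 120 and 40 ppm it differed by -0.16 ± 0.15 (0.817, 0% called, 839 genes below an unadjusted p of 0.05).

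The Sult1a1 call for 40 against 10 ppm in WT was lost without 10 ppm replicate 1 (0.58, adjusted p = 0.0625), replicate 2 (0.66, 0.0665) or replicate 4 (0.68, 0.0738), or without 40 ppm replicate 2 (0.58, 0.113) or replicate 3 (0.58, 0.115). Conversely, the change from air at 40 ppm passed without air replicate 5 (0.44, adjusted p = 0.045), 40 ppm replicate 1 (0.45, 0.0349) or 40 ppm replicate 4 (0.44, 0.0465), and the slope passed without any 1 of 5 arrays (air replicate 5, 10 ppm replicate 3, 40 ppm replicates 1 and 4, 120 ppm replicate 2). The Sult1a1 slope also passed after subtraction of each array's median (0.13, adjusted p = 0.0475) and with array weights (0.12, 0.0366).

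Neither Sult1a1 nor Sult1d1 was called in KO or CD-1. In KO, Sult1a1 read 9.15, 9.27, 9.37, 9.67 and 9.69 in air and 9.25, 9.52, 9.46, 9.56 and 9.06 at 10 ppm. It read 9.25, 8.84, 9.16, 9.16 and 9.28 at 40 ppm and 9.16, 9.44, 8.96, 8.99 and 9.56 at 120 ppm. The groups overlapped at every dose, and the 5 arrays at 40 ppm lay below the air mean. The changes were -0.06 ± 0.13, -0.29 ± 0.13 and -0.21 ± 0.13 (adjusted p of 0.98, 0.988 and 0.953), and the slope was -0.09 ± 0.04 (0.983). Limma called 0% of genes in KO at each dose and in the slope, with 649, 564, 596 and 569 genes below an unadjusted p of 0.05.

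In CD-1, Sult1a1 read 8.60, 8.95, 9.05, 9.31 and 9.02 in air and 9.26, 8.88, 8.93, 8.19 and 8.42 at 10 ppm. It read 9.48, 8.42, 8.79, 8.91 and 9.06 at 40 ppm and 8.82, 8.85, 9.46, 8.77 and 8.72 at 120 ppm. All 3 exposed groups overlapped air. The changes were -0.25 ± 0.21, -0.06 ± 0.21 and -0.06 ± 0.21 (adjusted p of 1 at each dose), and the slope was 0.00014 ± 0.07 (1). The share of genes called in CD-1 was 0%, 0.00877% and 0.0175% at 10, 40 and 120 ppm and 0.0614% for the slope, and at 10 ppm 272 genes lay below an unadjusted p of 0.05.

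**Figure D2:**
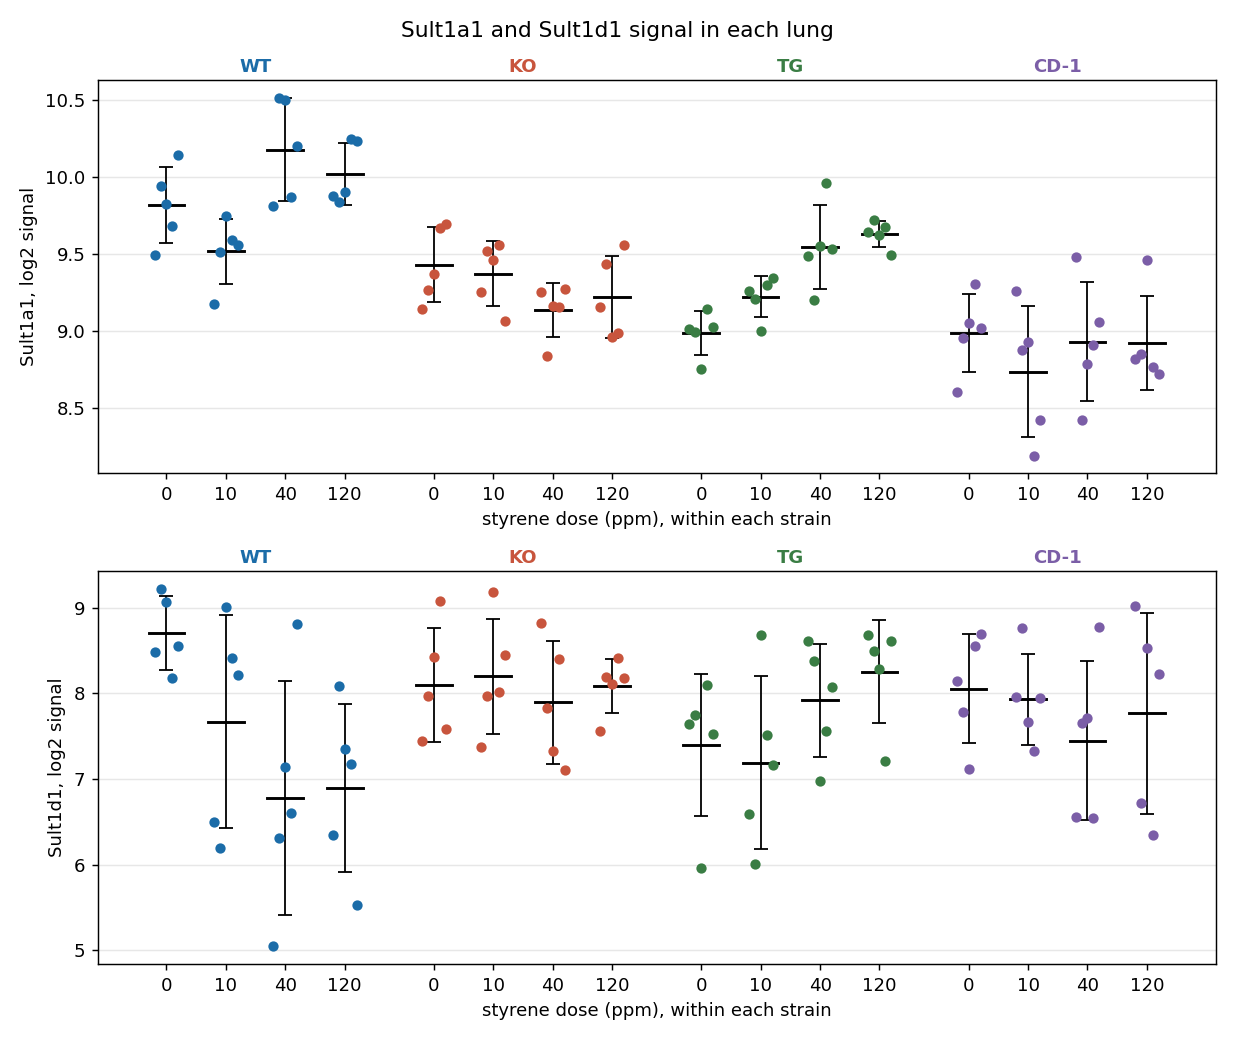
Log2 signal (vertical axes) of Sult1a1 (upper) and Sult1d1 (lower) in each of 80 lungs by styrene dose in ppm within strain (horizontal axes). Points are arrays, thick bars the mean and thin bars 1 SD of 5 arrays. Sult1a1 in TG at 40 and 120 ppm lies wholly above TG air, and Sult1d1 in WT at 120 ppm lies wholly below WT air.

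Sult1d1, the catecholamine sulfotransferase, fell in WT lungs at 40 and 120 ppm. In air the 5 WT arrays read 8.49, 9.22, 9.06, 8.18 and 8.55, and at 10 ppm 6.50, 6.20, 9.01, 8.41 and 8.21. At 40 ppm they read 5.05, 6.31, 7.14, 6.61 and 8.81, and at 120 ppm 6.34, 8.08, 7.36, 7.18 and 5.53. At 120 ppm all 5 arrays lay below the lowest air array, where 7.85% of genes were separated downward. At 40 ppm 4 of 5 did, replicate 5 lying within the air range, and at 10 ppm 2 of 5 did while the other 3 read as in air.

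The change was -1.92 ± 0.62 at 40 ppm, a 3.78-fold fall (adjusted p = 0.0272), and -1.80 ± 0.62 at 120 ppm, a 3.49-fold fall (0.0394), with 95% intervals of -3.20 to -0.63 and -3.09 to -0.52. At 10 ppm it was -1.03 ± 0.62 (adjusted p = 0.296), and the slope was -0.63 ± 0.19 per step (0.0223). These comparisons share the 5 air arrays. The exposed groups were not told apart, with differences of -0.88 ± 0.62 for 40 against 10 ppm (adjusted p = 0.53), -0.77 ± 0.62 for 120 against 10 ppm (0.627) and 0.12 ± 0.62 for 120 against 40 ppm (0.976). A second probe set of Sult1d1 gave -2.00 ± 0.55 at 40 ppm (0.0116) and -1.75 ± 0.55 at 120 ppm (0.0272), and the deviations of both sets from their group means had r = 0.98 over 80 arrays.

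Single arrays decided the calls of Sult1d1 in WT. At 40 ppm the call was lost without air replicate 2 (-1.79, adjusted p = 0.0603) or 3 (-1.83, 0.0567), or without 40 ppm replicate 1 (-1.48, 0.0805), 2 (-1.80, 0.0597) or 4 (-1.87, 0.0505). At 120 ppm it was lost without air replicate 1 (0.0544), 2 (0.083), 3 (0.0788) or 5 (0.0606), or without 120 ppm replicate 1 (0.0871), 4 (0.0528) or 5 (0.111), with changes of -2.10 to -1.46 over these fits, and the slope was lost without 120 ppm replicate 1 (0.0509) or 5 (0.0631). Testing all genes without the filter gave 0.0517 at 120 ppm, and a trended, robust variance gave 0.0614. With the mean signal of proximal airway genes as a covariate, described further on, no call of Sult1d1 in WT remained, and the change was -0.32 at 40 ppm (0.526) and -0.77 at 120 ppm (0.0762). In WT that mean itself differed from air by -1.02 at 40 ppm and -0.66 at 120 ppm. The covariate therefore takes out any exposure effect that Sult1d1 shares with it.

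In TG, Sult1d1 was not called at any dose. The air arrays read 7.64, 7.75, 5.96, 8.10 and 7.52, and those at 10 ppm 6.60, 6.01, 8.68, 7.51 and 7.17. At 40 ppm they read 8.62, 8.38, 6.98, 7.56 and 8.08, and at 120 ppm 8.68, 8.49, 8.28, 7.21 and 8.61. At 120 ppm 4 of 5 arrays lay above the highest air array and replicate 4 lay below the air mean. The changes were -0.20 ± 0.45 at 10 ppm (adjusted p = 0.867), 0.52 ± 0.45 at 40 ppm (0.797) and 0.86 ± 0.45 at 120 ppm (0.433), with a slope of 0.33 ± 0.14 (0.355).

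In KO, Sult1d1 read 7.45, 7.97, 8.42, 9.08 and 7.58 in air, 7.37, 7.97, 9.18, 8.02 and 8.45 at 10 ppm, 8.82, 7.83, 7.33, 8.40 and 7.11 at 40 ppm and 7.56, 8.19, 8.11, 8.41 and 8.18 at 120 ppm. The differences from air were 0.10, -0.20 and -0.01, each ± 0.35 (adjusted p of 0.987, 0.997 and 0.999), and at 120 ppm the 95% interval ran from -0.73 to 0.71. In CD-1 it read 8.14, 7.78, 7.12, 8.55 and 8.69 in air, 7.96, 8.76, 7.66, 7.33 and 7.95 at 10 ppm, 6.56, 7.65, 7.71, 6.55 and 8.77 at 40 ppm and 9.02, 6.72, 8.53, 6.34 and 8.22 at 120 ppm. The differences were -0.12, -0.61 and -0.29, each ± 0.49 (adjusted p of 1 at each dose), and the interval at 120 ppm, -1.32 to 0.75, left room for a change of either sign. In both strains every exposed group overlapped air.

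**Figure D3:**
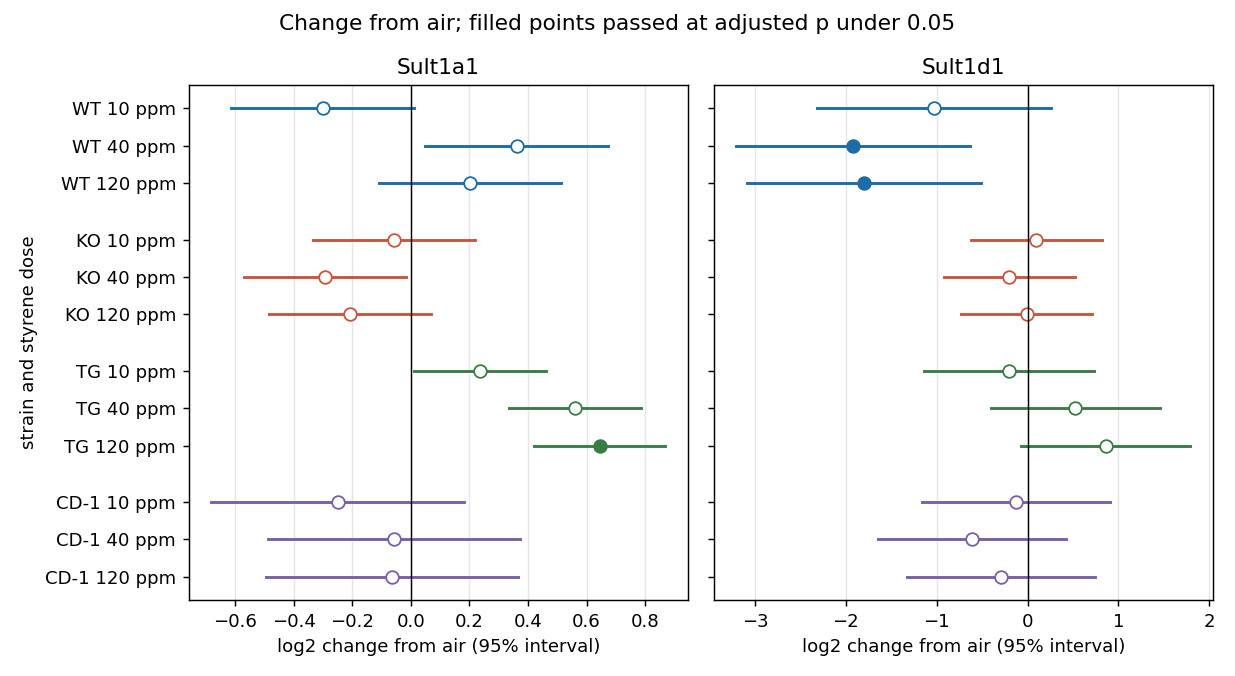
Change from air in log2 units (horizontal axes, which differ in scale between the panels) of Sult1a1 and Sult1d1 for each strain and dose (vertical axis), with 95% intervals from limma and n = 5 arrays per group. Filled points passed at an adjusted p under 0.05: Sult1a1 in TG at 120 ppm, and Sult1d1 in WT at 40 and 120 ppm.

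Whether the response differed between strains was tested directly as the difference of both changes from air. For Sult1d1 the WT response minus the TG response was -2.44 ± 0.80 at 40 ppm (adjusted p = 0.043, 10.1% of genes called) and -2.66 ± 0.80 at 120 ppm (0.0274, 9.75% called), and at 10 ppm the difference was -0.83 ± 0.80 (0.618, 5.51%). Against KO the WT response of Sult1d1 differed by -1.13 ± 0.74 (adjusted p = 0.39), -1.71 ± 0.74 (0.12) and -1.79 ± 0.74 (0.11) at 10, 40 and 120 ppm, so the fall in WT was not shown to differ from KO. Against CD-1 it differed by -0.91 ± 0.82 (0.677), -1.31 ± 0.82 (0.442) and -1.51 ± 0.82 (0.329), in contrasts with 1.89%, 1.61% and 4.37% of genes called. Between TG and KO it differed by -0.30 ± 0.59 (0.905), 0.73 ± 0.59 (0.801) and 0.87 ± 0.59 (0.609).

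For Sult1a1 the WT response exceeded the KO response by 0.65 ± 0.21 at 40 ppm (adjusted p = 0.0291), where 13.9% of genes were called, and the differences at 10 and 120 ppm were -0.24 ± 0.21 (0.532, 7.59% called) and 0.41 ± 0.21 (0.201, 11.4%). The TG response exceeded the KO response by 0.85 ± 0.17 at 40 ppm (adjusted p = 0.0604) and by 0.85 ± 0.17 at 120 ppm (0.0698), which missed the threshold, and by 0.29 ± 0.17 at 10 ppm (0.588). Between TG and KO, limma called 0.0175% of genes at 10 ppm and 0% at 40 and 120 ppm, with 902 and 1190 genes below an unadjusted p of 0.05 at the latter doses. The WT response differed from the TG response by -0.54 ± 0.19 (adjusted p = 0.0892), -0.20 ± 0.19 (0.557) and -0.44 ± 0.19 (0.133), and from the CD-1 response by -0.05 ± 0.26 (0.957), 0.42 ± 0.26 (0.442) and 0.27 ± 0.26 (0.627). The rise of Sult1a1 in TG was therefore not shown to be particular to TG.

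These differences also turned on single arrays. The Sult1a1 difference between WT and KO at 40 ppm was lost without KO air replicate 4 (adjusted p = 0.0562) or 5 (0.0592), KO 40 ppm replicate 2 (0.0593), WT air replicate 1 (0.0646) or 4 (0.0509), or WT 40 ppm replicate 2 (0.0701) or 3 (0.0675). The Sult1d1 difference between WT and TG at 120 ppm was lost without TG air replicate 3 (-2.30, 0.0642), WT air replicate 2 (-2.53, 0.0506) or WT 120 ppm replicate 1 (-2.52, 0.0554) or 5 (-2.32, 0.0643), and at 40 ppm without any 1 of 12 arrays: TG air replicates 1 and 3, TG 40 ppm replicates 1, 2 and 5, WT air replicates 2, 3 and 5, and WT 40 ppm replicates 1 to 4 (adjusted p of 0.0501 to 0.1). In the other direction, the Sult1a1 difference between TG and KO passed at 40 ppm without KO air replicate 1 (0.0265) or TG 40 ppm replicate 2 (0.0462), and at 120 ppm without KO air replicate 1 (0.0412), KO 120 ppm replicate 5 (0.0367) or TG air replicate 5 (0.0449). The Sult1d1 difference between WT and KO at 40 ppm passed without WT 40 ppm replicate 5 (-2.22, 0.0245), and the Sult1a1 difference between WT and TG at 10 ppm passed without WT air replicate 1 (-0.62, 0.0474).

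Strains were compared in air after subtracting each array's median, because the medians differ between strains. Sult1a1 in CD-1 differed from WT by -0.52 ± 0.14 (adjusted p = 0.00723), where 35.8% of genes were called. After subtraction the CD-1 air arrays ran from 4.33 to 5.02 above their medians and the WT arrays from 4.92 to 5.55, so the groups overlapped. KO differed from WT by 0.01 ± 0.14 (adjusted p = 0.982, 13.7% of genes called), TG from WT by -0.32 ± 0.14 (0.0887, 35.7% called) and TG from KO by -0.32 ± 0.14 (0.0982, 25.7% called). The order of Sult1a1 in air was thus KO and WT together, then TG, then CD-1, with only CD-1 and WT told apart among the pairs tested. The order depends on the scaling: as deposited, KO differed from WT by -0.39 (adjusted p = 0.015) and TG from WT by -0.83 (1.96e-05). Without TG air replicate 4, whose array median is the lowest, TG differed from WT by -0.41 (0.0296) and from KO by -0.42 (0.0383), and without WT air replicate 1 TG differed from WT by -0.40 (0.0417).

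For Sult1d1 none of the strain differences in air passed. KO differed from WT by -0.20 ± 0.38 (adjusted p = 0.769), CD-1 by -0.33 ± 0.38 (0.516) and TG by -0.79 ± 0.38 (0.112), and TG from KO by -0.58 ± 0.38 (0.272). As deposited, TG differed from WT by -1.30 (0.0039), and without TG air replicate 4 by -1.02 after median subtraction (0.046).

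The spread of Sult1d1 between arrays of the same group was among the widest of the genes tested. Its SD within groups was 0.85, larger than that of 99.6% of the genes tested, against a median of 0.16 over all genes. It was wide in each strain, with WT at 1.07, KO at 0.61, TG at 0.79 and CD-1 at 0.85. In WT at 40 ppm the highest of the 5 lungs had 13.5 times the signal of the lowest. Sult1a1 had an SD of 0.26 within groups, larger than that of 87.1% of genes, and the deviations of both genes from their group means were nearly unrelated (r = 0.13 over 80 arrays).

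The genes whose deviations ran most like those of Sult1d1 included products of airway secretory cells and glands. After subtraction of each group's mean, r over 80 arrays was 0.90 for Lypd2, a small LY6-type protein, 0.88 for Muc5b, a gel-forming airway mucin, and 0.87 for Tff2, a trefoil peptide of mucous cells. It was 0.87 for Scgb3a1, a secretoglobin of the larger airways, and 0.85 for Aqp4, a water channel. These 5 kept r between 0.84 and 0.89 without the 2 arrays farthest from the median of the compared gene, and rank correlations ran from 0.85 to 0.91. With only each strain's mean removed, so that dose effects stay in, the 3 most like genes were Aqp4, Lypd2 and Ppil6. These are descriptions with no test, and each pair of values shares its RNA, array and normalization.

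A list of 19 measured markers of proximal airway secretory cells and glands holds 4 of these 5 genes (Lypd2, Muc5b, Tff2 and Scgb3a1), so its values restate them in part. Its mean signal had r = 0.88 with Sult1d1 within groups (rank correlation 0.87), between 0.80 and 0.94 in the 4 strains, and of its 16 tested genes 12 had r over 0.7, against 0.824% of all genes. Their r ran from 0.09 for Krt4 to 0.90 for Lypd2. In WT at 40 ppm the lung with the lowest Sult1d1 (5.05, replicate 1) had the lowest list mean, 5.73, and the lung with the highest Sult1d1 (8.81, replicate 5) the highest, 7.65. Other groups did not match in this way. In WT air replicate 1 had the highest list mean, 8.11, with Sult1d1 at 8.49, below the group mean of 8.70. In CD-1 at 40 ppm replicate 4 had the lowest Sult1d1, 6.55, with a list mean of 6.89, above that of its group. The list of ciliated cell markers had r = 0.79, adipose markers 0.61 and club cell markers 0.53, and endothelial markers had r = -0.47. Cartilage markers of the large airways had r = 0.06, and 0 of their 10 genes passed the filter.

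**Figure D4:**
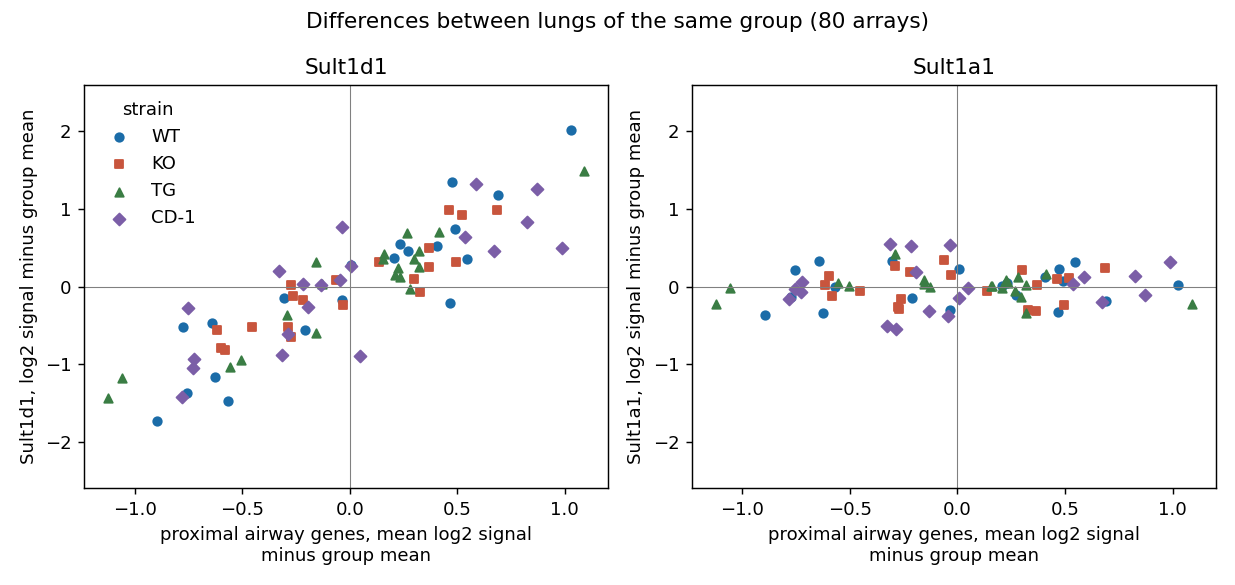
Deviation of Sult1d1 (left) and Sult1a1 (right) from its group mean (vertical axes, log2) against the deviation of the mean signal of 19 proximal airway genes (horizontal axes, log2), 1 point per lung, 80 lungs, strains by colour and symbol. Sult1d1 follows the airway genes in all 4 strains (r = 0.88), and Sult1a1 does not (r = 0.07).

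The proximal airway list also had a lower median in each exposed WT group than in WT air. Its mean was not tested, and its range overlapped air at every dose. In WT air its mean ran from 6.87 to 8.11 over 5 arrays (median 7.85), at 10 ppm from 6.73 to 7.85 (7.59), at 40 ppm from 5.73 to 7.65 (6.59) and at 120 ppm from 6.23 to 7.67 (6.99). At 40 ppm 7 of its 16 tested genes fell, among them Lypd2, Chad, Muc5b, Scgb3a1 and Pigr, and 0 rose, where 12.4% of all genes fell, with a median change of -1.54 against -0.01 over all genes. At 120 ppm 3 of 16 fell (Lypd2, Chad and Pigr), where 9.65% of all genes fell, with a median of -0.75. At 10 ppm 0 of 16 were called, where 4.9% of all genes fell, with a median of -0.18. Against the same shares, club cell markers fell in 9 of 10 tested genes at 40 ppm and 7 of 10 at 120 ppm (1 rose at each). Ciliated markers fell in 2 of 10 at 40 ppm (1 rose), near the share of all genes, and in 3 of 10 at 120 ppm.

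A fit with the list mean of each array as a covariate, added after the data had been seen, gave Sult1d1 changes in WT of -0.32 ± 0.32 at 40 ppm (adjusted p = 0.526) and -0.77 ± 0.29 at 120 ppm (0.0762), and a slope of -0.20 ± 0.10 (0.157). Over all genes 16.4%, 17.5% and 17.7% were called in these contrasts, against 26%, 23.9% and 26% without the covariate. The list mean itself was lower in WT at 40 and 120 ppm than in WT air, and the list holds 4 of the 5 genes most like Sult1d1. A smaller Sult1d1 change in this fit was thus largely fixed beforehand and does not show how firm the fall is. Why Sult1d1 and the airway genes moved together was not tested. In the same fit the Sult1a1 rise in TG at 120 ppm was 0.65 ± 0.11 (adjusted p = 0.0261, 0.0526% of genes called). Its slope in TG was 0.23 ± 0.04 (0.013, 0.0614% called). Sult1a1 had r = 0.07 with the list mean within groups. The fit could thus hardly alter the Sult1a1 change and does not show how firm that rise is. In TG the airway list ran from 5.55 to 7.09 in air and from 6.38 to 7.23 at 120 ppm. At 120 ppm 0 of its 16 genes were called, where 0.0701% of all genes were called.

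The genes most like Sult1a1 within groups were Selenbp2 (r = 0.74) and Selenbp1 (0.72), which encode close relatives among selenium-binding proteins whose probes may share transcripts. Rgcc, a regulator of the cell cycle (0.72), Epb41l4b, a band 4.1 protein of the cell cortex (0.69), and Fam107a, an actin-associated protein (0.68), followed. Without the 2 arrays farthest from the median of the compared gene, r ran from 0.61 to 0.69. Of the marker lists, ciliated cells had the highest r with Sult1a1, 0.16, and lymphocytes the lowest, -0.33.

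**Figure D5:**
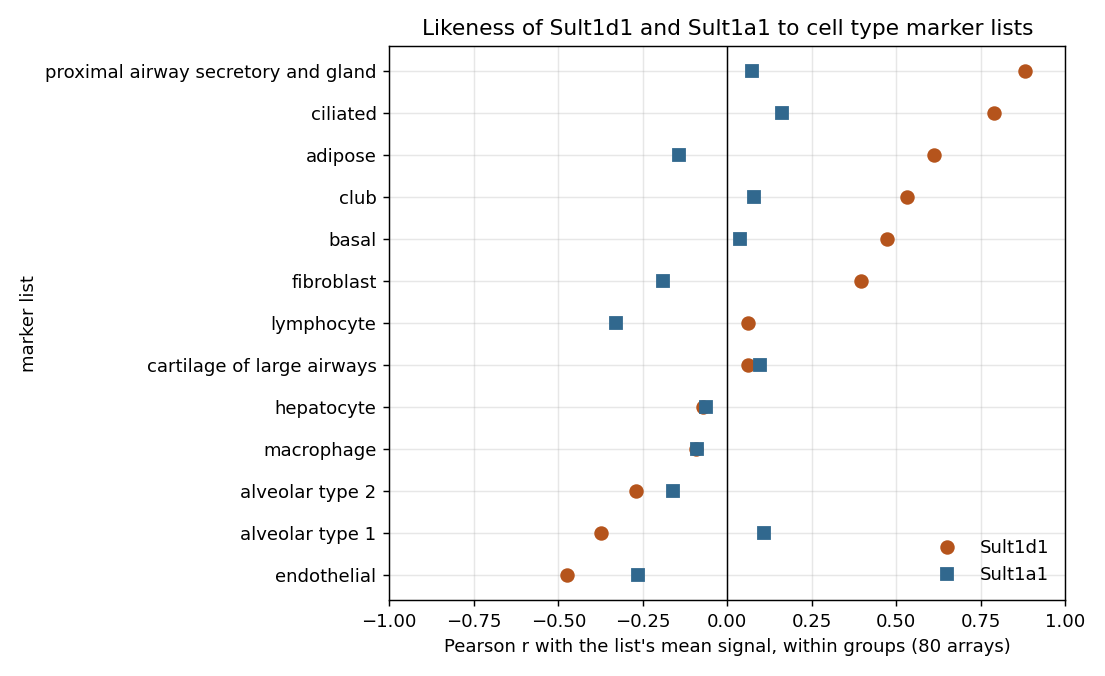
Pearson r (horizontal axis) between the deviations of Sult1d1 (circles) or Sult1a1 (squares) from group means and those of the mean signal of each marker list (vertical axis), over 80 arrays. Sult1d1 runs from -0.47 (endothelial) to 0.88 (proximal airway), and Sult1a1 stays between -0.33 and 0.16.

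The rest of the sulfation pathway was read against the share of all genes called. Of 14 tested genes that supply, carry or clear PAPS and sulfate, 2 rose and 3 fell in WT at 120 ppm (over all genes, 14.3% rose and 9.65% fell). Suox, the sulfite oxidase that makes sulfate, rose by 0.33 ± 0.07 (adjusted p = 0.00223), and Cdo1, the cysteine dioxygenase, by 0.23 ± 0.07 (0.0238). Tst, the thiosulfate sulfurtransferase, fell by 0.46 ± 0.11 (0.00642), the sulfate transporter Slc26a2 by 0.29 ± 0.08 (0.00952) and Bpnt2, a phosphatase of the PAPS by-product, by 0.36 ± 0.10 (0.0179). The PAPS synthases were not called, with -0.04 ± 0.04 for Papss1 (0.542) and -0.06 ± 0.10 for Papss2 (0.714). The median of the 14 was -0.02, against 0.01 over all genes.

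Of 11 tested sulfatases, their modifying factor and tyrosine sulfotransferases, 4 fell and 0 rose in WT at 120 ppm (median -0.08): Arsk by 0.45 ± 0.09 (adjusted p = 0.00149), Sulf2 by 0.38 ± 0.11 (0.0172), Ids by 0.15 ± 0.04 (0.0238) and Sulf1 by 0.53 ± 0.18 (0.0365). Over all genes, 14.3% rose and 9.65% fell at this dose, and the same shares stand beside the further WT counts here. Glucuronidation is the other main conjugation of hydroxyl groups. Of its 5 tested genes Ugdh, which makes the glucuronic acid donor, rose by 0.22 ± 0.05 (0.00654), and Ugt1a9 (-0.46 ± 0.12, 0.00823) and Ugt1a6a (-0.39 ± 0.11, 0.0153) fell, with the caution that genes of the Ugt1a cluster share their last exons. The mean signal of the 12 measured glucuronidation genes, of which 5 passed the filter, also ran with Sult1d1 within groups (r = 0.805, from 0.64 to 0.92 by strain). The 5 tested genes were split: r was 0.69 for Ugt1a9, 0.64 for Ugt8a and 0.59 for Ugt1a6a, but 0.07 for Ugdh and 0.08 for Ugp2. Whether the falls of Ugt1a9 and Ugt1a6a are separate from that of Sult1d1 was not tested. Of 11 tested transcription factors known to act on sulfotransferase genes, Pparg fell by 0.55 ± 0.11 (0.00109) and Foxa1 by 0.31 ± 0.10 (0.037), and 0 rose, where 9.65% of all genes fell and 14.3% rose. In TG at 120 ppm 0 genes of these 4 lists were called by limma, where 0.0701% of all genes were called, so a count of 0 tells little. The lowest adjusted p-values in these lists were 0.151 for Ugt1a6a (0.40 ± 0.11) and 0.154 for Ugt1a9 (0.40 ± 0.11) in limma. Sult5a1, the further sulfotransferase with measurable signal, changed by -0.15 ± 0.11 in WT (0.337) and 0.05 ± 0.12 in TG (0.882) at 120 ppm.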

How the data were processed

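Values were log2 signals as deposited, for 45037 probe sets on 80 arrays. Per the submitters' processing notes, the authors used RMA and Partek. Their versions and settings, and whether strains were normalized together, are not named in the sources used here. Of the probe sets, 28898 carry 1 gene symbol in the platform annotation, 551 carry several and 15588 are not listed in it. The number of arrays limits the precision, and the labels name no batch. No pair of arrays was a duplicate (highest r across groups 0.996).

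The members and all gene lists were chosen with earlier results of these data known. Named are the 5 members, the 5 genes (and, by strain, 3 genes) most correlated with each tested member, up to 4 genes per list with the lowest p in WT at 120 ppm and up to 2 in TG, and Cyp2f2. Cdo1, Papss1, Papss2, Muc5b and Scgb3a1 at 40 ppm, and Krt4 were named after their values were seen. Marker lists were described by counts and correlations.

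Linear models used limma (version 3.58.1, under R 4.3.3): each strain alone (20 arrays, 16 residual degrees of freedom), pairs of strains for differences in response (40 arrays, 32), and the air arrays after subtraction of each array's median (20 arrays, 16). P-values were adjusted by Benjamini-Hochberg over all 11406 genes, with a threshold of 0.05. Slopes use the rank of the dose. The fits were tested on simulated data. Alternatives were median centring, quantile normalization, no and a stricter filter, all arrays in 1 fit, a trended robust variance, array weights, a replicate block, the second probe set, each array left out in turn and, added later, the airway list as covariate.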

Additional observations from a re-analysis of the deposited data

Results flagged for a closer look

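Among the 5 members and the second Sult1d1 probe set, 96 groups of 5 arrays were examined for an array far from the other 4 (a gap above 0.71 of the group's range), and 11 had one. Chance alone gives about 1 in 20 groups if values are normal and groups independent. The groups here are not independent: both Sult1d1 probe sets had r = 0.98 within groups, and TG 0 ppm replicate 3 is counted on each. The count is therefore not read as an excess. For Sult1a1 the far arrays were CD-1 120 ppm replicate 3 at 9.46, with the others at 8.72 to 8.85, and KO 40 ppm replicate 2 at 8.84, with the others at 9.16 to 9.28. For Sult1d1 they were TG 0 ppm replicate 3 at 5.96, with the others at 7.52 to 8.10, and TG 120 ppm replicate 4 at 7.21, with the others at 8.28 to 8.68. On its second probe set they were TG 0 ppm replicate 3 at 4.17, against 5.99 to 6.50, and CD-1 10 ppm replicate 2 at 7.15, against 6.06 to 6.25.

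The remaining arrays of this kind lie below the filter on signal. For Sult1b1 they were WT 120 ppm replicate 3 at 3.51 (others 3.13 to 3.21) and WT 40 ppm replicate 4 at 3.42 (others 3.13 to 3.20). For Sult1c2 they were TG 120 ppm replicate 5 at 3.00 (others 2.69 to 2.77) and WT 120 ppm replicate 4 at 2.87 (others 3.16 to 3.24). For Sult1e1 it was CD-1 0 ppm replicate 4 at 3.31 (others 2.67 to 2.83).

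Responses that differed between strains by the interaction test in limma were those of Sult1a1 at 40 ppm between WT and KO (0.65), and of Sult1d1 between WT and TG at 40 ppm (-2.44) and 120 ppm (-2.66). In the latter pair every TG array at 120 ppm except replicate 4 lay above the TG air mean, and every WT array lay below the WT air mean.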

How the results depend on the processing

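The 5 arrays per group limit what can be called: the calls of Sult1a1 and Sult1d1 against air, apart from the Sult1a1 slope in TG, each ended on leaving out at least 1 array. Over leave-one-out fits the changes ran from -2.42 to -1.48 (Sult1d1, WT 40 ppm), -2.10 to -1.46 (WT 120 ppm), -0.72 to -0.53 (WT slope), 0.59 to 0.68 (Sult1a1, TG 120 ppm), 0.58 to 0.75 (WT 40 against 10 ppm), 0.57 to 0.75 (WT against KO response, 40 ppm), and -2.95 to -2.01 and -2.96 to -2.30 (Sult1d1, WT against TG response, 40 and 120 ppm). Members called ranged from 0 to 2 for WT 40 ppm, the WT slope, the WT against KO response at 40 ppm and TG against WT in air. They ranged from 0 to 1 for WT 120 ppm, TG 40 and 120 ppm, WT 40 against 10 ppm, the WT against TG responses at 10, 40 and 120 ppm, the TG against KO responses at 40 and 120 ppm and TG against KO in air.

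Subtracting array medians gave 2 calls for the WT slope (Sult1a1 0.13), 0 for TG 120 ppm (Sult1a1 0.58) and 0 for WT against TG at 40 ppm (Sult1d1 -2.37). Air comparisons as deposited keep the difference in array medians between strains (mean 4.57 in WT, 4.16 in KO and 4.10 in TG). They gave 1 call for KO against WT, where Sult1a1 changed sign to -0.39, 2 for TG against WT and 1 for TG against KO. A shift of whole arrays and a difference of the members cannot be told apart in them. Quantile normalization gave 1 call for TG against WT and 1 for TG against KO in air. Without a filter, WT 120 ppm had 0 calls (Sult1d1 -1.80) and WT against TG at 40 ppm 0 (-2.44). All arrays in 1 fit gave 0 calls for WT against KO at 40 ppm (Sult1a1 0.65, adjusted p = 0.0559 in limma). A trended robust variance gave 0 calls for WT 120 ppm (-1.80), 0 for WT against TG at 40 ppm (-2.44) and 1 for TG against KO at 40 ppm. Array weights gave 2 calls for the WT slope, 1 for TG 40 ppm (Sult1a1 0.64), 1 for TG against KO at 40 ppm and 2 for TG against WT in air. The airway covariate was chosen after seeing the data and itself differed from air in WT. With it 0 members were called at WT 40 ppm (Sult1d1 -0.32, 16.4% of genes called), WT 120 ppm (-0.77, 17.5%) and the WT slope (-0.20, 17.7%). The cause of these changes was not tested.

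Replicate numbers showed no pairing of the samples: 35 of 120 same-numbered pairs within a strain had r over 0.1, as did 139 of 480 different-numbered pairs. With the number as a replicate block, members called were 2 at WT 40 ppm (Sult1a1 0.36, adjusted p = 0.0403 in limma), 2 for the WT slope (0.13), 0 for WT against TG at 40 ppm (Sult1d1 -2.44), 1 for TG against WT and 1 for TG against KO in air, and no other call changed. Of uncalled values 65 changed sign, 51 of them in leave-one-out fits, and the 72 alternative and 360 leave-one-out values of the 3 untested genes all moved by less than 1 SD.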
